A study of Rattus norvegicus with 18 samples.

Results

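Leukaemia inhibitory factor (Lif) and 9 other genes of the interleukin 6 (IL-6) cytokine family were followed in neonatal rat ventricular cardiomyocytes treated briefly with a myosin II inhibitor. The members were chosen by gene name from the deposited expression table: the ligand genes Lif, Il6, Il11, Ctf1 and Clcf1, the receptor genes Il6st, Lifr and Osmr, the transcription factor gene Stat3 and the feedback gene Socs3 (listed there as LIF, IL6, IL11, CTF1, CLCF1, IL6ST, LIFR, OSMR, STAT3 and SOCS3). All 10 were found among the 28909 genes of the table. The family was taken up with the blebbistatin-DMSO difference of these same libraries in view, so the members' values in that contrast are given as a description, without a test.

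Cytokines of this family signal through receptor complexes that share the subunit gp130, the product of Il6st. Lif binds the Lifr subunit, and the receptor complex activates Janus kinases, which phosphorylate STAT3. STAT3 then enters the nucleus and induces target genes, among them Socs3, whose protein blocks the receptor and its kinases. In the heart, Lif and cardiotrophin-1 (Ctf1) are known as survival and hypertrophy signals for cardiomyocytes, and Il11 is known as a cytokine of cardiac fibroblasts.

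The treated group was wild-type ventricular cells of 1-day-old SD rats exposed for 0.5 h to blebbistatin, an inhibitor of myosin II ATPase activity. The control group was the same kind of cells given DMSO. The dose was 25 µM by the labels, and a value of 0.25 in the same unit also stands in the text on the design. Both groups had been freed of fast-attaching cells, plated on collagen and moved to a low-serum medium. Each group had 3 RNA libraries, and the labels do not say whether these came from separate cell preparations or pooled animals, so the spread between them may be technical. The 6 H3K9me3 immunoprecipitation and 6 input samples of the series are not analysed here.

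Expression was given as CPM, the reads of a gene scaled to the same total in each library. The smallest steps between values put the depth at 59.6 to 63.3 M reads per library. CPM values do not account for transcript length, so each gene was compared only with itself. DMSO replicate 1 lay apart from the other libraries. On the first principal component, which held 42% of the variance, it scored -77.4, while the other 5 lay between -3.03 and 34.6. It was the highest or the lowest of the 6 libraries for 68.3% of the 15204 tested genes. The marker genes of cardiomyocytes were present: 13 of the 14 listed ones were found, and these were above 0 in each library. They summed to 24130 to 26220 CPM with blebbistatin and 24310 to 29250 CPM with DMSO. The 12 listed fibroblast markers were also above 0 throughout and summed to 43600 to 49180 CPM with blebbistatin and 43750 to 50540 CPM with DMSO, so the cultures held RNA of both cell types.

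Lif was the member whose groups stood apart. It was at 13.53, 12.71 and 13.90 CPM in blebbistatin replicates 1 to 3, against 18.58, 22.03 and 22.34 CPM in DMSO replicates 1 to 3. Each treated value was below each control value, and the gap between the groups was wider than the range within either. The values rest on 804 to 857 reads per treated library and 1124 to 1379 per control library, so counting error is small beside the difference. Scaled between libraries, Lif averaged 13.2 ± 0.47 CPM with blebbistatin and 21.2 ± 1.03 CPM with DMSO (SD, n = 3 each), a log2 fold change of -0.68 ± 0.13 (SE). A smaller spread within groups was found for 2.03% of the tested genes, and 2.22% had a lower log2 fold change. Lif was taken up with this contrast in view, so these shares are a description and not a test. In DMSO replicate 1 Lif was the lowest of the controls. Without that library its log2 fold change was -0.72 ± 0.13. In bulk RNA, fewer cells that express a gene and less RNA of it per cell cannot be told apart.

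**Figure D1:**
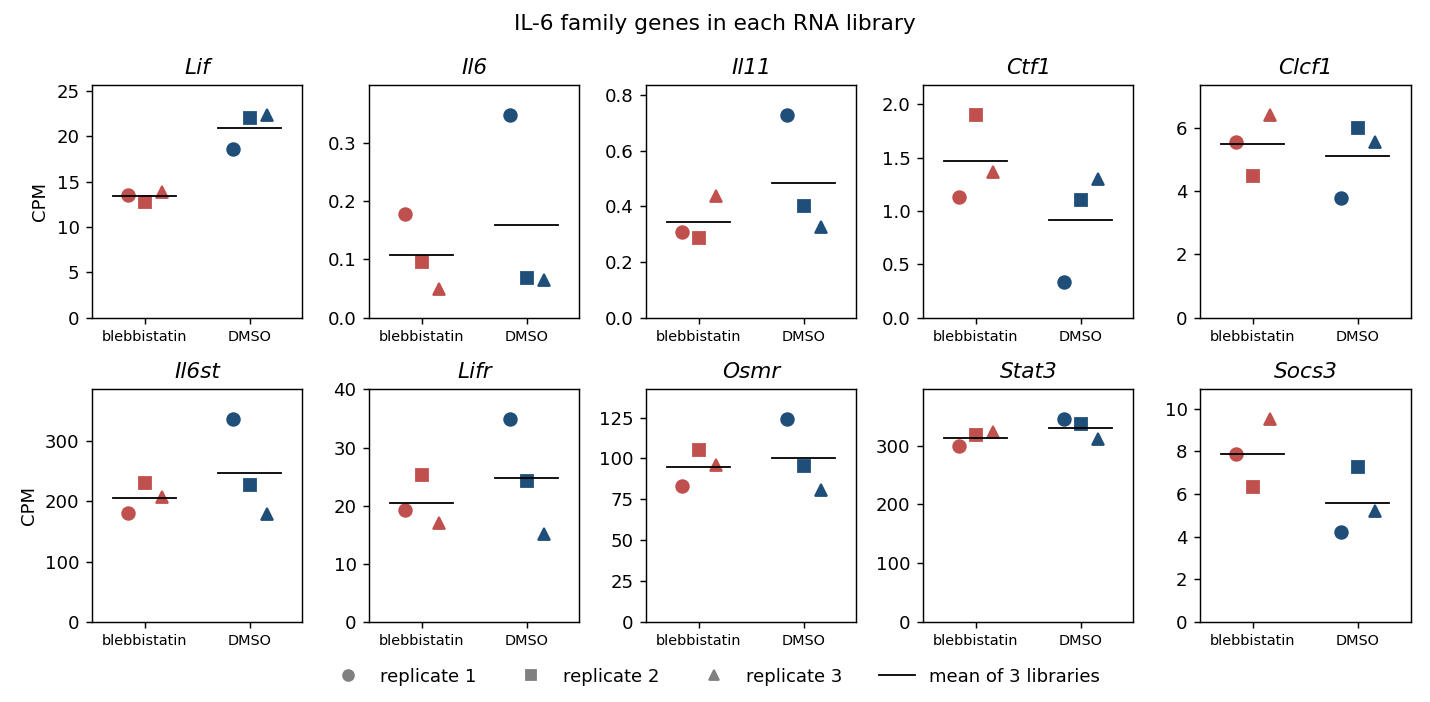
Level of the 10 members in each of the 6 RNA libraries, in CPM as deposited, one panel per gene with its own axis from 0; symbols mark the replicate number and the line the mean of 3 libraries. The groups do not overlap for Lif (12.71 to 13.90 CPM with blebbistatin, 18.58 to 22.34 CPM with DMSO), while the other 9 genes overlap.

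Of the 10 members, 9 had enough reads to enter the model fitted across all genes (limma), and 0 of the 9 passed its threshold of an adjusted p under 0.05, where 0.0197% of all tested genes did (3 of 15204), 0.00658% of them higher and 0.0132% lower. Without adjustment, 229 genes (1.51%) had a p under 0.05, 0.73% of the tested genes on the higher side and 0.776% on the lower. Lif was the 1 member whose treated libraries all lay below the controls, as they did for 2.94% of tested genes, and for 0 members did they all lie above, against 3.17%. Because the family was taken up from this contrast, nothing is read from these counts.

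For each of the other ligand genes the groups overlapped. Clcf1, which encodes cardiotrophin-like cytokine, was at 5.546, 4.490 and 6.406 CPM with blebbistatin and 3.802, 6.002 and 5.572 CPM with DMSO. Its log2 fold change was 0.07 ± 0.23 (SE), and -0.09 ± 0.21 without DMSO replicate 1. The lowest of the 6 values was that of DMSO replicate 1. Ctf1 was at 1.132, 1.897 and 1.362 CPM with blebbistatin and 0.3306, 1.107 and 1.296 CPM with DMSO, again lowest in DMSO replicate 1. Its log2 fold change of 0.74 ± 0.47 was 0.24 ± 0.33 without that library. Clcf1 overlaps the gene Rad9a, and Ctf1 overlaps Ctf2, in the RefSeq annotation of a newer rat assembly. Rad9a was at 12.74, 13.52 and 13.35 CPM with blebbistatin and 8.167, 11.74 and 10.80 CPM with DMSO. Reads of overlapping genes may have been shared, since the strand setting is not given in the sources used here. Ctf2 itself was listed at 0 in 5 libraries and at 0.04859 CPM in DMSO replicate 3.

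Il11 and Il6 had few reads, where a read number is the CPM value divided by the smallest step of its library. Il11 was at 0.3072, 0.2846 and 0.4378 CPM with blebbistatin and 0.7274, 0.4024 and 0.3240 CPM with DMSO, that is, 18 to 27 reads per treated library and 20 to 44 per control library. The highest value was that of DMSO replicate 1, whose exact Poisson interval of 95% ran from 0.529 to 0.976 CPM and covers counting error only. The log2 fold change of -0.39 ± 0.43 was -0.07 ± 0.45 without that library. Il6, the founding cytokine of the family, rested on 11, 6 and 3 reads with blebbistatin and 21, 4 and 4 reads with DMSO, and did not pass the filter on low values. In CPM these were 0.1779, 0.0949 and 0.0486 with blebbistatin and 0.3472, 0.0671 and 0.0648 with DMSO. The value of blebbistatin replicate 3 equals the floor of 3 reads. The groups overlapped, and the highest library was DMSO replicate 1, whose counting interval of 0.215 to 0.531 CPM lay above those of DMSO replicates 2 and 3, with upper limits of 0.172 and 0.166 CPM, and overlapped that of blebbistatin replicate 1 (0.0888 to 0.318 CPM).

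The promoter windows of Il11 and Il6 are shown because they are the windows that held a motif match among the 3 ligand windows searched. Windows of 300 bases, 250 before and 50 after the annotated start site, were taken from RefSeq (build GRCr8), which matched 8 of the 10 members; the windows of Lif and Clcf1 were not searched here. They were searched for AP-1 (TGANTCA), STAT (TTCNNNGAA) and cAMP response (TGACGTCA) motifs and for the CArG box. Each motif reads the same on both strands, and capitals mark the matches. The window of Il11, at chr1:78098372-78098671 on the plus strand, held an AP-1 match that starts 142 bases before the start site. The window of Il6, at chr4:5894526-5894825 on the minus strand, held a cAMP response match that starts 162 bases before the start site.
Il11: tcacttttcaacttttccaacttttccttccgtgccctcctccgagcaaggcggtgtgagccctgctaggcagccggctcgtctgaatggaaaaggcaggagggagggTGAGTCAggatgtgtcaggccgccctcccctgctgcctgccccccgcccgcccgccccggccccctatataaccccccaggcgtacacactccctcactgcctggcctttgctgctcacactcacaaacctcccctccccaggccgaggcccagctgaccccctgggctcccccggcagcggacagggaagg
Il6: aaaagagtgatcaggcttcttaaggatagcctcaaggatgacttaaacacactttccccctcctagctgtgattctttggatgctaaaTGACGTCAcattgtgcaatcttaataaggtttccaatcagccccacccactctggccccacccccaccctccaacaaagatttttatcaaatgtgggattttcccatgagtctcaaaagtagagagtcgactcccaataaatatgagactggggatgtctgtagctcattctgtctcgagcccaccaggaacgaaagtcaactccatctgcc
Of all 33469 promoter windows, 7.33% held an AP-1 match, 1.83% a cAMP response match, 8.87% a STAT match and 1.64% a CArG box. Osmr held an AP-1 match, and the windows of Ctf1, Il6st, Lifr, Stat3 and Socs3 held none of the 4 motifs. A match describes the letters of the window and not a bound site. For each gene a single window was searched, and its annotated start site was not checked against where the RNA starts in these cells. Some windows may therefore lie outside the promoter in use, and a window without a match does not show that the gene's promoter lacks the motif.

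The receptor genes differed mainly between DMSO replicate 1 and the rest. Il6st, which encodes gp130, was at 181.2, 230.3 and 207.2 CPM with blebbistatin and 336.4, 227.0 and 180.0 CPM with DMSO. Lifr was at 19.18, 25.22 and 16.98 CPM with blebbistatin and 34.83, 24.31 and 15.14 CPM with DMSO. Osmr, the receptor subunit for oncostatin M, was at 83.40, 105.0 and 95.91 CPM with blebbistatin and 123.9, 95.58 and 80.70 CPM with DMSO. Each of the 3 was highest in DMSO replicate 1, with the other 2 controls inside or below the range of the treated libraries. The log2 fold changes of Il6st, Lifr and Osmr were -0.26 ± 0.26, -0.25 ± 0.33 and -0.10 ± 0.21 (SE). Without DMSO replicate 1 they took the opposite sign, at 0.03 ± 0.15, 0.08 ± 0.25 and 0.11 ± 0.14.

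The groups overlapped for both Stat3 and Socs3. Stat3 was at 300.2, 318.0 and 322.7 CPM with blebbistatin and 344.6, 336.3 and 311.2 CPM with DMSO, a log2 fold change of -0.12 ± 0.13 that was -0.04 ± 0.11 without DMSO replicate 1. Socs3 was at 7.858, 6.308 and 9.503 CPM with blebbistatin and 4.199, 7.293 and 5.183 CPM with DMSO. The treated libraries were the higher ones on average, at 7.77 ± 1.52 CPM against 5.60 ± 1.42 CPM with DMSO (SD, n = 3 each), but DMSO replicate 2 lay above blebbistatin replicate 2. Its log2 fold change was 0.48 ± 0.24 with all libraries and 0.34 ± 0.24 without DMSO replicate 1. For Lif the fold change had the opposite sign to that of Socs3, and whether these 2 fold changes differ was not tested.

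**Figure D2:**
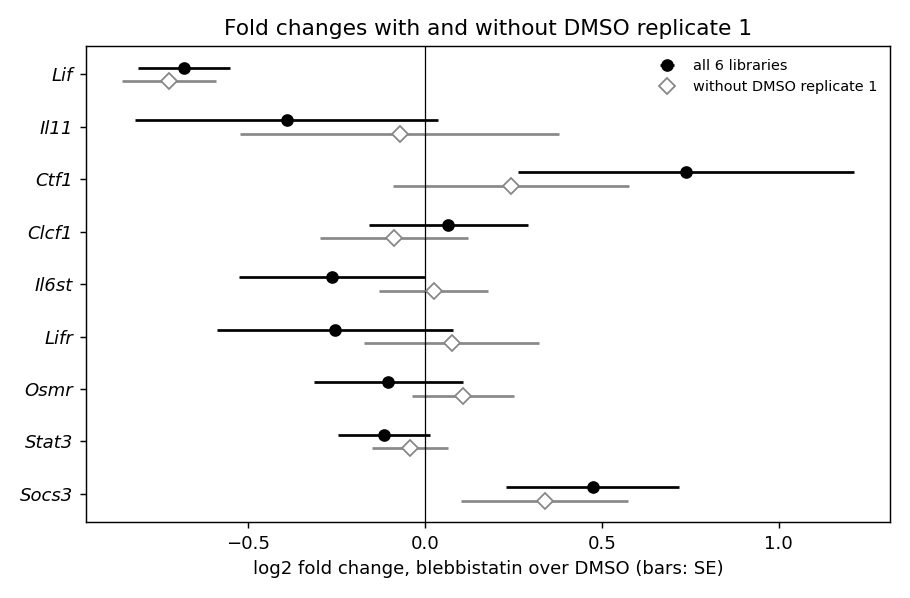
Log2 fold change of blebbistatin over DMSO for the 9 members with enough reads, from all 6 libraries (filled circles) and without DMSO replicate 1 (open diamonds); bars are standard errors. Lif is at -0.68 and -0.72 in the 2 fits, while Clcf1, Il6st, Lifr and Osmr lie on either side of 0.

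DMSO replicate 1 was the extreme library for 9 of the 10 members, highest for 6 (Il6, Il11, Il6st, Lifr, Osmr and Stat3) and lowest for 3 (Ctf1, Clcf1 and Socs3); over all tested genes it was highest for 33.8% and lowest for 34.6%. Lif was the exception, with its highest value in DMSO replicate 3 and its lowest in blebbistatin replicate 2. Against the mean of the other 5 libraries, on the scaled log2 scale, DMSO replicate 1 differed by 0.85 for Il6st, 0.94 for Lifr, 0.56 for Osmr and 0.25 for Stat3. It differed by -1.63 for Ctf1 and -0.61 for Socs3. For Lif the difference was -0.12 against the mean of DMSO replicates 2 and 3. Against all other 5 libraries, which include the treated ones, the difference was 0.31 for Lif. Marker lists moved in this library too, on the same scale by -1.12 over 24 ribosomal protein genes, 1.35 over 5 red blood cell genes, -0.73 over 11 leukocyte and macrophage markers, -0.31 over the cardiomyocyte markers, 0.07 over the fibroblast markers, 0.22 over 8 smooth muscle and pericyte markers and -0.13 over 9 endothelial markers. The cardiomyocyte markers differed in sign by measure, since their summed CPM was highest in this library, at 29250. Their part in the members' values was not tested. The fold change of Lif was as large without this library.

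The rest of the pathway was described with 5 lists of genes known from textbooks, of which 75 had enough reads. Over all genes tested, limma called 0 of the 75 higher and 0 lower, with 4 higher and 3 lower at an unadjusted p under 0.05, where 0.73% and 0.776% of all tested genes were. In 10 of the 75 (13.3%) the groups did not overlap, 5 higher and 5 lower, where 6.11% of all tested genes did not. The lists were chosen with earlier results of these data known, so nothing is read from these counts. The median log2 fold change was 0.01 over 8 other ligands and receptors of the family, -0.03 over 16 genes of the JAK-STAT and SHP2 signal chain and -0.08 over 16 genes that restrain the signal. It was 0.01 over 24 STAT3 target genes and -0.15 over 11 genes that control the decay of cytokine mRNAs, beside 0.0025 over all tested genes. Without DMSO replicate 1 these medians were 0.06 over the other ligands and receptors, 0.04 over the signal chain, -0.02 over the restraining genes, -0.09 over the STAT3 targets and -0.13 over the decay genes, so those of the signal chain and of the STAT3 targets took the opposite sign.

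Among the other ligands, oncostatin M (Osm), whose gene is the neighbour of Lif on the rat map, was also lower in every treated library. It was at 0.3881, 0.2846 and 0.0649 CPM with blebbistatin and 0.5455, 0.5533 and 0.5669 CPM with DMSO, a log2 fold change of -1.09 ± 0.49 (-0.63 without blebbistatin replicate 3) that did not pass the test. These values rest on 24, 18 and 4 reads with blebbistatin, against 33, 33 and 35 with DMSO. Oncostatin M is known as a product of macrophages and other leukocytes. The 11 macrophage and leukocyte markers summed to 198.8 to 220.7 CPM with blebbistatin and 120.5 to 216.8 CPM with DMSO, with 0 of them at 0 in any library and the lowest sum in DMSO replicate 1. Their part in the Osm values was not tested. The receptor gene Il27ra, whose product pairs with gp130 for interleukin 27, was at 1.682, 1.992 and 2.497 CPM with blebbistatin and 0.6943, 0.8718 and 1.263 CPM with DMSO. Every treated library was above every control, and the log2 fold change of 1.03 ± 0.30 did not pass. Cntf and the receptor gene Il11ra1 had log2 fold changes of -0.25 ± 0.29 and 0.14 ± 0.17, and of 0.01 and -0.001 without DMSO replicate 1. Il27 was at 0 to 2 reads per library and Il31ra was listed at 0 throughout, and Il31 is not analysed here.

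In the signal chain, the adaptor gene Gab1, the kinase genes Mapk3 and Jak3 and the transcription factor gene Stat2 had the lowest p values without passing. Stat2 was at 79.52, 70.86 and 72.37 CPM with blebbistatin and 62.44, 68.81 and 67.51 CPM with DMSO, a small difference without overlap (log2 fold change 0.12 ± 0.11). For Gab1, Mapk3 and Jak3 the groups overlapped, with -0.29 ± 0.19, 0.21 ± 0.16 and -0.19 ± 0.15, and with -0.12, 0.06 and -0.08 without DMSO replicate 1. The kinase genes Jak1, Jak2 and Tyk2, which bind the gp130 receptors, had log2 fold changes of -0.09 ± 0.17, -0.24 ± 0.22 and -0.04 ± 0.13; they were picked for their role after the values were seen, and without DMSO replicate 1 Jak1 was at 0.06 and Jak2 at -0.02.

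Among genes that restrain the signal, Cish, a SOCS family gene induced by STAT5, had the lowest p. It was at 12.06, 11.67 and 13.48 CPM with blebbistatin, against 7.142, 9.808 and 8.747 CPM with DMSO. Every treated library was above every control, and the log2 fold change of 0.50 ± 0.16 (0.42 ± 0.16 without DMSO replicate 1) did not pass. Adam17, a protease that sheds the IL-6 receptor, Ptpn1 and Pias1 overlapped, with -0.21 ± 0.15, -0.11 ± 0.13 and -0.11 ± 0.14. Without DMSO replicate 1 Adam17 was at -0.06 and Pias1 at -0.04, and without blebbistatin replicate 2 Ptpn1 was at -0.03. For Socs1, another SOCS family gene, the log2 fold change was -0.02 ± 0.32, with -0.25 to 0.13 over the left-out libraries, and this gene too was added after the values were seen.

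The STAT3 target genes went in both directions, 13 positive and 11 negative. Pim1, a kinase gene, was at 13.18, 13.99 and 16.43 CPM with blebbistatin, against 24.65, 23.47 and 20.05 CPM with DMSO (log2 fold change -0.68 ± 0.17). Reg3b, a secreted lectin gene, was at 48.09, 37.91 and 39.03 CPM with blebbistatin, against 55.31, 50.70 and 51.41 CPM with DMSO (-0.38 ± 0.14). Both were lower in every treated library, and neither passed. Cebpb, a leucine zipper factor of the acute phase response, was at 83.42, 97.61 and 124.6 CPM with blebbistatin, against 50.70, 79.29 and 70.12 CPM with DMSO (0.57 ± 0.20). Irf1, an interferon response factor, was at 18.56, 17.03 and 17.51 CPM with blebbistatin, against 11.31, 12.89 and 15.91 CPM with DMSO (0.38 ± 0.15). Both were higher in every treated library, and neither passed. The liver genes Fga, Fgb, Fgg and Crp had too few reads to be tested, and Mcl1 and Serpina3n are not analysed here.

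The promoter windows of Cish and Irf1 are shown because both genes were higher in every treated library and both windows hold the STAT motif TTCNNNGAA, in capitals. Cish, at chr8:116850719-116851018 on the plus strand, held 4 matches, which start 241, 230, 136 and 119 bases before the start site. Only 2 of the 33469 windows held 4 or more. Irf1, at chr10:38417685-38417984 on the plus strand, held 1 match that starts 142 bases before the start site.
Cish: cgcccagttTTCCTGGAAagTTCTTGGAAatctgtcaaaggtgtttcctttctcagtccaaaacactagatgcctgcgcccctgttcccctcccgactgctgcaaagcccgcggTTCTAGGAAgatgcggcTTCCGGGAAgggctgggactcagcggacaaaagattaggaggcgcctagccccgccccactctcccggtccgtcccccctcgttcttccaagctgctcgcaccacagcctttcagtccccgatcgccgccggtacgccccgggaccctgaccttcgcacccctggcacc
Irf1: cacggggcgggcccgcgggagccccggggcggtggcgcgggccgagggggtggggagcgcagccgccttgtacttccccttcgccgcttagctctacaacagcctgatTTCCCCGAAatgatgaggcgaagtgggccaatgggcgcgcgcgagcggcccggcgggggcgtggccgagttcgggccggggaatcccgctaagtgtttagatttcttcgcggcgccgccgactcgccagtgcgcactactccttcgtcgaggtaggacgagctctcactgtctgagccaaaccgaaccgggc
Reg3b, which was lower in the treated libraries, also held a STAT match, which starts 129 bases before the start site. Zfp36 held a STAT match that starts 10 bases after the start site and a CArG box that starts 32 bases before it. Zfp36l1 held an AP-1 match that starts 152 bases before the start site. The windows of Pim1, Cebpb, Stat2 and Il27ra held none of the 4 motifs, and the window of Osm was not searched here. The annotated start sites were not checked in these cells, so a window without a match does not show that the promoter lacks the motif. Among the list genes, windows were searched only where the groups did not overlap. Whether the motif goes with a direction of difference was not tested.

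**Figure D3:**
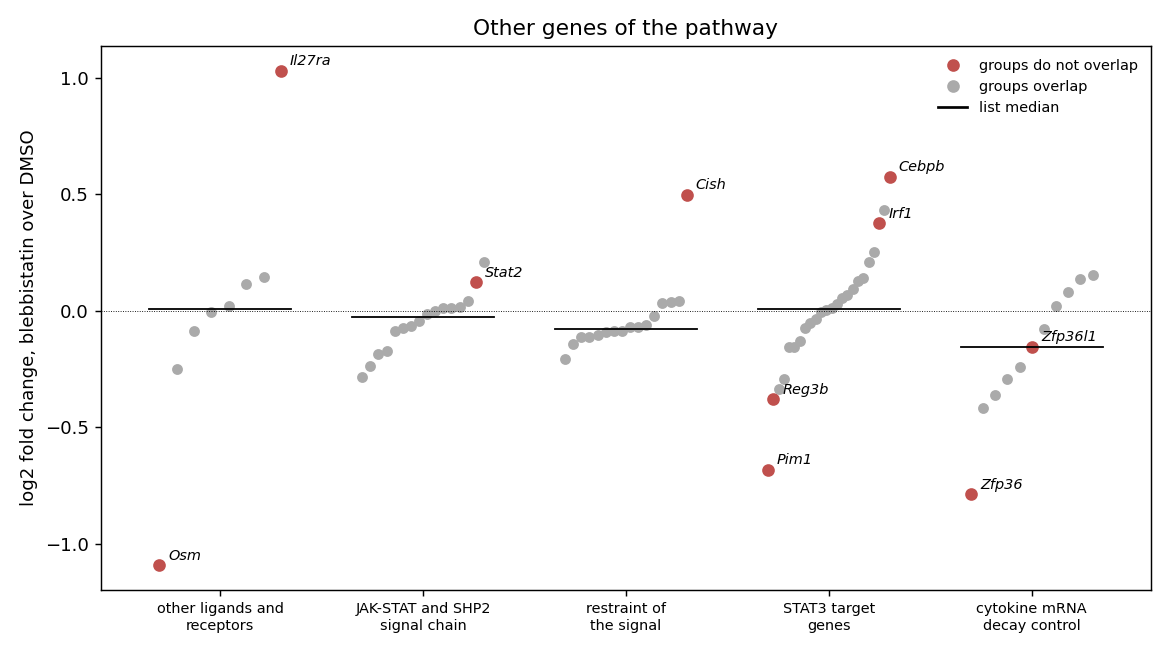
Log2 fold change of blebbistatin over DMSO for the 75 tested genes of the 5 lists, ordered by value within each list; red points are genes whose treated and control libraries do not overlap, grey points overlap and lines are list medians. The medians lie between -0.15 and 0.01, and the 10 red genes lie on both sides of 0.

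The genes that control the decay of cytokine mRNAs had Zfp36 as the one with the lowest p. Its product, tristetraprolin, binds AU-rich elements and speeds the decay of cytokine mRNAs. Zfp36 was at 24.55, 24.76 and 31.61 CPM with blebbistatin, against 34.58, 53.60 and 49.21 CPM with DMSO. Every treated library lay below every control, and the log2 fold change of -0.79 ± 0.18 (-0.93 ± 0.15 without DMSO replicate 1) did not pass. Zfp36l1 of the same family did not overlap either, with a smaller log2 fold change of -0.15 ± 0.11. Rc3h1 and Arid5a overlapped, with -0.42 ± 0.27 and -0.24 ± 0.17. Rc3h1 was at -0.13 without DMSO replicate 1, and Arid5a at -0.12 without blebbistatin replicate 2.

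The genes whose level followed Lif most closely were sought among 11379 tested genes with a symbol and a mean of at least 1 CPM. Over the 6 libraries, Pearson's r with Lif on the scaled log2 scale was 0.99 for Rell1, 0.99 for Plk2, 0.99 for Rbm12, 0.98 for Egr2 and 0.98 for Btg2. All 6 libraries share the 2 groups, so any gene with the same group difference scores high, and r is given as a description. Plk2, a polo-like kinase gene, was at 209.3, 215.6 and 214.4 CPM with blebbistatin, against 296.0, 362.6 and 358.9 CPM with DMSO. Like Lif it was lowest among the controls in DMSO replicate 1. Btg2, an antiproliferative gene, was likewise lowest among the controls in that library, with 71.63, 65.96 and 72.34 CPM with blebbistatin and 82.64, 112.4 and 110.7 CPM with DMSO. Egr2, a zinc finger transcription factor gene, was at 15.72, 17.17 and 21.34 CPM with blebbistatin and 32.98, 45.59 and 40.72 CPM with DMSO. Rell1 showed a much smaller difference, with 22.80, 22.28 and 23.11 CPM with blebbistatin and 22.66, 25.18 and 25.30 CPM with DMSO, and its groups stood apart only after scaling. Rbm12, an RNA-binding protein gene, was listed at 0 in all 3 treated libraries, against 23.86, 24.13 and 20.89 CPM with DMSO. Its control values rest on 1443, 1439 and 1290 reads, and the cause of the values of 0 was not tested. Unlike Lif, it passed limma's threshold. For Socs3 the closest genes were Cog7, Tmem109 and Epdr1, with r of 0.99, 0.99 and 0.98. In each of them, as in Socs3, DMSO replicate 1 was the lowest library, as it was for 34.6% of tested genes. Without that library r was 0.98, 0.98 and 0.97.

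**Figure D4:**
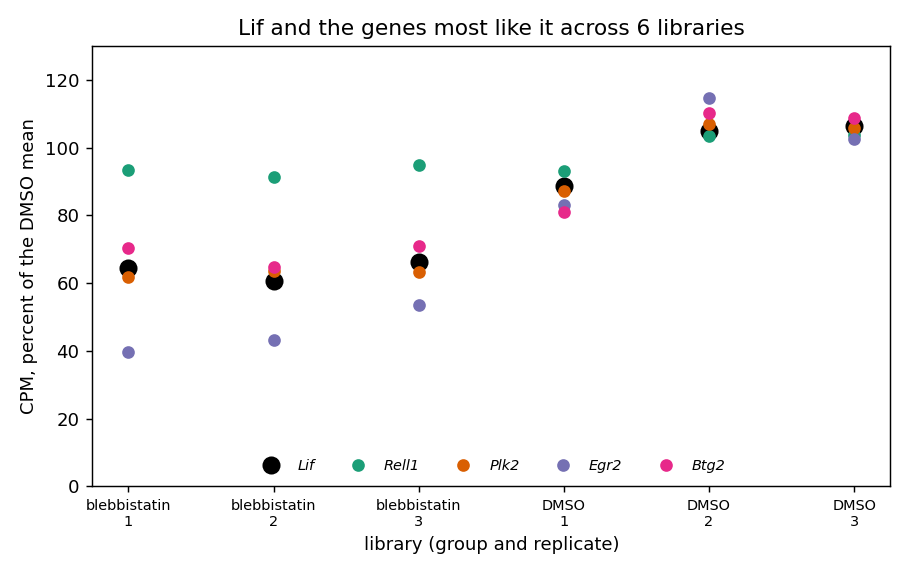
Level of Lif and of Rell1, Plk2, Egr2 and Btg2 in each library, in CPM as deposited and drawn as percent of the gene's own mean over the 3 DMSO libraries. The treated points of Lif, Plk2, Egr2 and Btg2 lie below their control points, and DMSO replicate 1 is the lowest control for all 5 genes; Rbm12 is left out because it was listed at 0 in the treated libraries.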

How the data were processed

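RNA of 6 libraries, 3 with blebbistatin and 3 with DMSO, was analysed. The authors deposited CPM values for 28909 genes. Trim Galore, BWA, MACS2 2.1.0, StringTie 1.3.4, HISAT2 2.1.0 and edgeR 3.20.9 are listed with rn6, per the submitters' processing notes, for RNA and ChIP samples together. Which of them made the table, its annotation and its strand setting are not given in the sources used here. In each library 99.1 to 99.2% of values above 0 were whole multiples, within 0.02, of a smallest step, taken as 1 read. Low values included fractions of it, so reads were not recovered over the table and the count test listed as an alternative was not run. Read numbers in the text are single values divided by this step, used for counting error only.

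Values were divided by TMM factors (0.928 to 1.03, trims of 0.3 and 0.05, no weights) and tested as log2(CPM + 0.1) with limma 3.58.1 in R 4.3.3 (trend and robust settings, two-sided, Benjamini-Hochberg over all genes). Genes needed 0.162 CPM, or 10 reads at the median depth of 61.7 M reads, in 3 libraries, which left 15204. For low genes the pseudocount makes fold changes too small. Scaled CPM gave the means ± SD, single values are CPM as deposited, and groups were called overlapping or not on scaled values. Intervals and the floor of 3 reads cover counting error only.

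Members and lists were chosen with earlier results of these data known. The text names the 10 members, up to 4 genes with the lowest p per list, the 5 genes most like Lif and the 3 most like Socs3; names beginning LOC were not taken as symbols. The steps were tested on simulated data. The alternatives were other scalings, filters and pseudocounts, the replicate block, non-robust moderation and leaving out each library with the genes kept fixed.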

Additional observations from a re-analysis of the deposited data

How the results depend on the processing

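The log2 fold change of Lif ran from -0.72 to -0.64 over 15 alternatives, from -0.722 to -0.658 over the 6 left-out libraries and -0.681 with the replicate block. No member and no gene of the 5 lists passed limma's threshold under any of these 15. Of the values of the 9 tested members under these alternatives (Il11 had none with the filter of 1 CPM), 129 kept their direction and moved by less than 1 SD, and 5 took the opposite sign. These 5 were Il6st (0.026), Lifr (0.076), Osmr (0.108) and Clcf1 (-0.087) without DMSO replicate 1, and Clcf1 (-0.050) without blebbistatin replicate 3. Of the named list genes, Cntf (0.011) and Il11ra1 (-0.001) turned without DMSO replicate 1. A pseudocount of 1 CPM gave 0.636 for Il27ra and -0.340 for Osm, and library-size scaling gave -0.114 for Zfp36l1. Over the 6 left-out libraries the log2 fold change ran from -0.087 to 0.189 for Clcf1, -0.495 to 0.026 for Il6st, -0.592 to 0.076 for Lifr, -0.272 to 0.108 for Osmr, -0.427 to 0.011 for Cntf and -0.001 to 0.28 for Il11ra1. Of the 3 genes passing over the whole table, 1 was higher and 2 lower. The number higher was 0 without a filter, with pseudocounts of 0.5 or 1 CPM and with the replicate block, which left 2 genes. Leaving out each library gave 3 to 6 genes, 0 to 4 of them higher and 2 to 3 lower, with 6 without DMSO replicate 1 and 6 without DMSO replicate 3. The cause was not tested. The edgeR test was not run because whole reads were not recovered. Deviations of same-numbered libraries correlated at -0.289, 0.054 and -0.092, so the numbers gave no sign of pairing. Il6 rested on 3 to 21 reads per library, which limits its precision.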
